A study of Rattus norvegicus with 6 samples.

Results

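Potassium channel subunits were examined in tissue of the rostral ventrolateral medulla (RVLM), a hindbrain region whose neurons drive the sympathetic outflow that sets blood pressure. The list held 55 rat genes: pore-forming and accessory subunits of voltage-gated (Kv), inwardly rectifying (Kir), two-pore-domain (K2P), calcium- and sodium-activated and KCNQ channels, the Kv channel-interacting proteins (KChIPs), and the sulfonylurea receptors of ATP-sensitive (KATP) channels. A probe set counted as a member when its gene symbol was exactly 1 of these names, so that probe sets carrying several symbols stayed out. By that rule 51 of the 55 genes had at least 1 probe set, 85 probe sets in all, out of 31042 on the array that are not array controls. Kcnf1, Kcng1, Kcnmb2 and Kcnn2 had no probe set under their own symbol alone.

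The study set spontaneously hypertensive rats (SHR), an inbred strain with genetic hypertension, against Wistar-Kyoto rats (WKY, spelled Wistar-Kyoko in the labels), the normotensive strain commonly used with it. There were 3 SHR and 3 WKY animals, each with 1 Affymetrix Rat 230 2.0 array. All animals weighed 250 to 350 g and received no treatment, and neither age nor sex is given in the labels. SHR and WKY are separate inbred strains, so blood pressure and every other strain difference cannot be told apart in this design.

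Potassium channels let potassium leave the cell and so pull the membrane away from the firing threshold. Kv channels open on depolarisation and shape spikes and the gaps between them. The Kv4 members of that family, with their KChIP partners, carry the fast transient A-type current. Kir channels hold the resting potential and, in the G protein-gated and KATP forms, couple it to transmitters and to metabolism. K2P channels carry leak current, calcium- and sodium-activated channels follow activity, and KCNQ channels carry the M-current that muscarinic receptors close. In RVLM neurons such currents set the firing rate and the response to transmitters, oxygen and pH.

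Present calls covered 64.8% to 67.0% of probe sets per array and overlapped between strains, and array-to-array correlations were 0.970 to 0.980 within a strain and 0.963 to 0.974 between strains. The median log2 signal was 7.46 to 7.47 in SHR against 7.43 to 7.45 in WKY, without overlap (exact 2-sided permutation p = 0.1, the smallest that 3 against 3 allows), and that of the kept channel probe sets was 8.41 to 8.46 in SHR against 8.30 to 8.37 in WKY. The difference between 3' and 5' control probe sets differed between the strains for hexokinase, at 0.83 to 1.08 log2 in SHR against 1.498 to 1.72 in WKY, with the same exact p of 0.1. For the GAPDH and beta-actin controls the strains overlapped. The tissue label was checked with markers. Of 8 hindbrain position genes (Hox genes) with a probe set, 6 were detected, against 1 of 5 forebrain genes. Th, Dbh and Pnmt, which make catecholamines in the C1 neurons of the RVLM, were detected, whereas Phox2a was not. The summed linear signal of the 5 detected C1 markers overlapped, at 2403 to 4348 in SHR and 1916 to 6705 in WKY. Th was uneven between animals, at 751, 994 and 2029 in SHR against 723, 458 and 3197 in WKY. All 6 detected hindbrain position genes had lower values in SHR, with a summed linear signal of 1090 to 1788 against 1999 to 2494 in WKY, and their summed levels did not overlap. Likewise all 10 oligodendrocyte markers had lower values in SHR, at 95928 to 102452 against 105629 to 112196, also without overlap. Neuron markers overlapped, at 97844 to 101480 in SHR and 93892 to 104454 in WKY, and so did astrocyte markers, at 56732 to 66028 in SHR and 62783 to 66915 in WKY. All 6 detected cholinergic and motor neuron markers had higher values in SHR, with a summed signal of 11306 to 20838 against 11125 to 14104 in WKY, and all 7 detected endothelial markers had lower ones, at 4328 to 5808 against 5734 to 6040 in WKY. Both of these sums overlapped. No gene of these lists passed the test at an adjusted p of 0.05. The part that the marker and array differences have in the channel values below was not tested.

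Detection came first, because a channel below background has no measured difference. A probe set was kept for testing when the array software called it Present on at least 3 of the 6 arrays. This left 48 of the 85 member probe sets (56.5%), from 33 genes, against 67% of all probe sets. Of the 85, 39 were Present on all 6 arrays and 24 were Absent on all 6, where 57% and 22.6% of all probe sets were. Per array, 57.6% to 58.8% of member probe sets were Present in SHR and 52.9% to 55.3% in WKY. The shares did not overlap between the strains, a difference of a few probe sets, and the filter was the same for both strains.

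**Figure D1:**
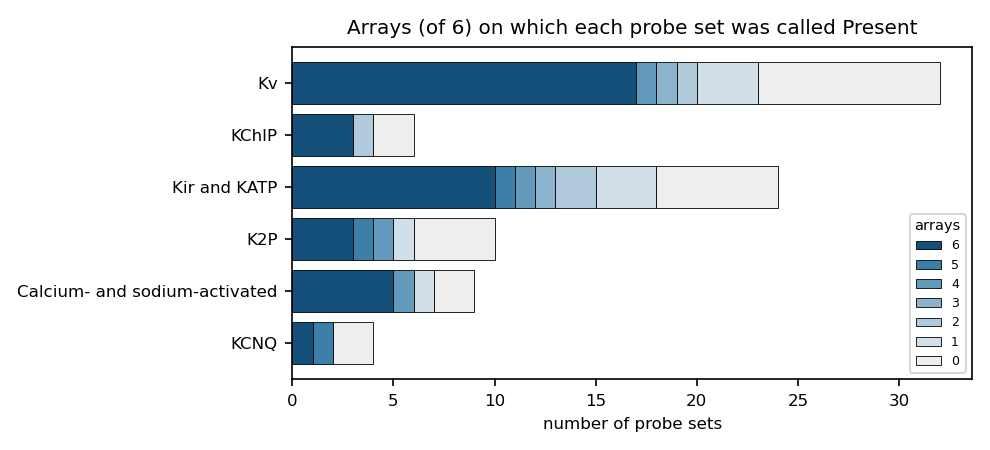
Number of member probe sets per channel family (bar length), shaded by the number of the 6 arrays on which each was called Present. Probe sets Present on at least 3 arrays number 19 of 32 for Kv, 3 of 6 for KChIP, 13 of 24 for Kir and KATP, 5 of 10 for K2P, 6 of 9 for calcium- and sodium-activated and 2 of 4 for KCNQ channels.

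In 11 genes no probe set under the gene's symbol alone was well above background: every one was Absent on all arrays. These were Kcna3, Kcnb2, Kcnh3, Kcnh7, the silent modifiers Kcns2 and Kcnv1, the beta subunit Kcnab2, Kcnip2 (whose probe sets shared with a second symbol were detected and are not counted here), the GIRK subunit Kcnj9, and the small-conductance calcium-activated channels Kcnn1 and Kcnn3. A further 7 genes had scattered calls and were not tested: Kcna2, Kcnh5, Kcnip3, Kcnj2, Kcnj4, Kcnk9 and Kcnk12. Among them, Kcna2, a Kv1 channel of axons, was Present on 2 SHR and 0 WKY arrays, and Kcnip3 was Present on 0 SHR and 2 WKY arrays. The signal of Kcnv1 was 5.10, 5.76 and 6.12 in SHR against 6.56, 6.28 and 6.66 in WKY, and that of Kcnh3, an ELK channel of forebrain neurons, was 5.99, 6.42 and 4.08 in SHR against 6.75, 6.43 and 6.92 in WKY. Both run lower in every SHR animal than in any WKY animal, but both are Absent throughout, so the values bound a level and measure no difference. The Kcnk2 probe set 1382723_at, also Absent throughout, ran the other way, at 4.71, 4.46 and 4.05 in SHR against 3.77, 3.07 and 3.13 in WKY. Of all kept probe sets of the array, 15% did not overlap. The Absent Kcnc2 probe set 1371200_at is aligned to the opposite strand from the other Kcnc2 probe sets, and the Absent Kcnk3 probe set 1375807_at to the opposite strand from the other Kcnk3 probe sets.

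For the 48 kept probe sets, SHR was compared with WKY by limma on log2 signal with Benjamini-Hochberg adjustment over all 20790 kept probe sets of the array. A probe set was called at an adjusted p under 0.05, and differences below are SHR minus WKY on the log2 scale with their standard error. No potassium channel probe set was called (0 of 48), against 0.924% of all probe sets (192, with 0.524% higher and 0.399% lower in SHR). At an unadjusted p under 0.05 there were 7 of 48 members (14.6%, against a background of 9.52%), 5 higher and 2 lower in SHR, where 4.81% of all probe sets were higher and 4.7% lower. The strains did not overlap for 8 of 48 (16.7%, background 15%). These shares lie at or near the background, and nothing is read from them about the list. The direction was upward in 29 members and downward in 19, where 50.3% of all probe sets had a difference above 0. That split was 35 against 13 without the first SHR animal, 26 against 22 under median centring, and 44 against 41 with no detection filter. The median difference was 0.06 for the members and 0.00 for all probe sets. For the members it was 0.12 without the first SHR animal, 0.03 under median centring and 0.015 with no filter. The median size regardless of sign was 0.18 for the members and 0.12 for all probe sets. In bulk tissue, fewer cells of a type and less RNA per cell cannot be told apart, and this applies to each value below.

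The intervals bound what the test left uncalled. For 41 of the 48 probe sets the 95% interval spanned 0, for 41 it stayed within 1 log2 unit (a doubling or halving) of 0, and for 20 it stayed within 0.5 log2. Differences past 1.5-fold in either direction occurred in 2 probe sets, 1 each of Kcnd3 and Kcnq3, and 26 were smaller than 0.2 log2. With each gene represented by its kept probe set of highest mean signal, 0 of 33 genes were called (background 0.902%) and 4 had an unadjusted p under 0.05 (background 9.6%): Kcnip4, Kcnab1, Kcnq3 and Kcna1, with adjusted p-values of 0.270, 0.368, 0.419 and 0.429 by limma. These genes went 18 upward and 15 downward.

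**Figure D2:**
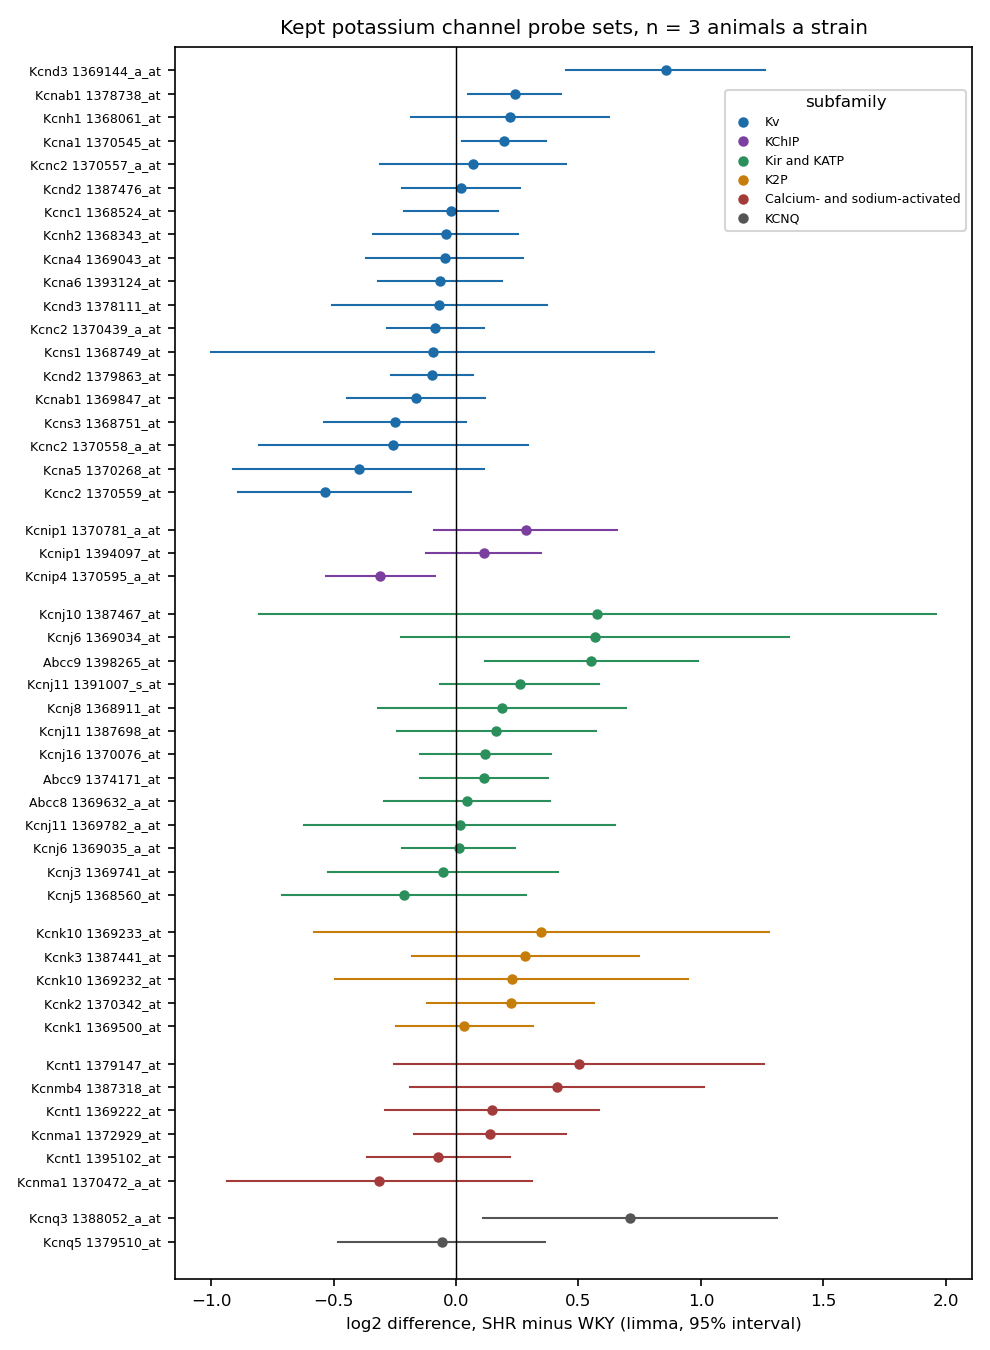
Difference SHR minus WKY (log2) with its 95% confidence interval for each of the 48 kept probe sets, coloured by channel family. The points run between -0.54 (Kcnc2 1370559_at) and 0.86 (Kcnd3 1369144_a_at), and 41 of the 48 intervals span 0.

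Among the pore-forming Kv subunits the A-type channels come first. Kcnd3 encodes Kv4.3, which carries the transient A-type current that delays the next spike. Its probe set 1369144_a_at, which covers the gene at chr2:227351835-227559681 on the plus strand (Rnor_5.0, as the annotation in the files gives it), read 8.56, 8.46 and 8.96 in SHR, against 7.59, 7.72 and 8.10 in WKY. Every SHR animal lay above every WKY animal. The strain means ± SD over 3 animals were 8.66 ± 0.26 in SHR and 7.80 ± 0.27 in WKY, and the difference was 0.86 ± 0.18 (95% interval 0.45 to 1.26), a 1.81-fold higher signal. It had the smallest p of the members but missed the threshold, with an adjusted p of 0.0735 by limma.

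A further Kcnd3 probe set did not show that difference. 1378111_at lies 1407 bases downstream, at chr2:227561089-227561680, and was designed from an expressed sequence tag. It read 9.78, 10.00 and 10.31 in SHR against 9.79, 9.91 and 10.59 in WKY, and the difference was -0.07 ± 0.20 with an adjusted p of 0.951 by limma. Its strain values overlap throughout. The remaining Kcnd3 probe set, 1369145_a_at, was Absent on all arrays. Across 13 alternatives the Kcnd3 1369144_a_at difference stayed between 0.70 and 1.004 log2, and its adjusted p between 0.0679 and 0.283 (limma). These leave out a block on replicate number, because no pairing of the animals by number was seen. The result with that block is given further below.

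**Figure D3:**
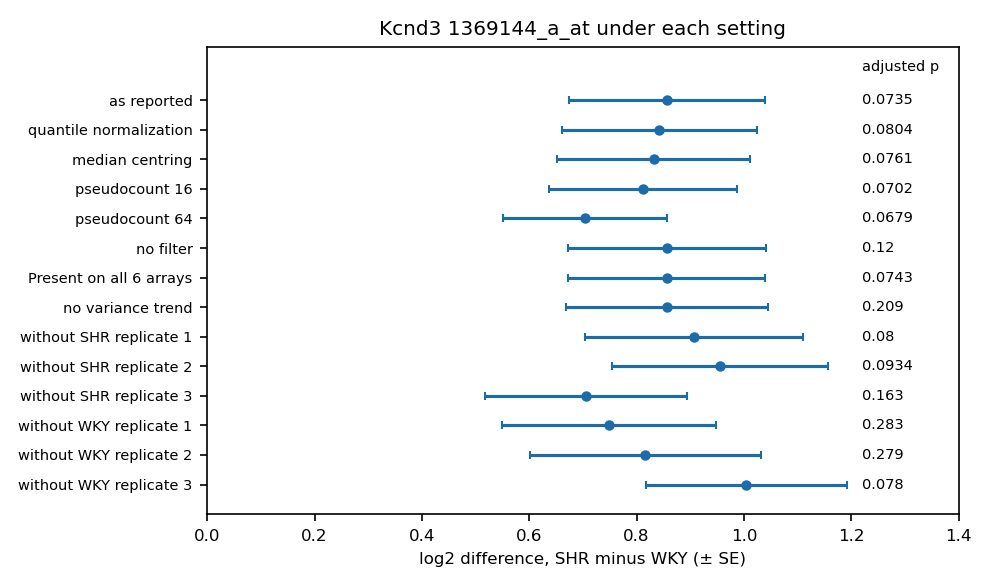
Difference SHR minus WKY for Kcnd3 probe set 1369144_a_at (log2, points with standard errors) under the reported setting and 13 alternatives, with the adjusted p at the right. The fit with a block on replicate number is not drawn, since no pairing of the animals by number was seen. The value stays between 0.70 and 1.004 log2 under all of them, while the adjusted p is 0.0735 as reported and ranges from 0.0679 to 0.283.

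The other A-type channel is Kv4.2, from Kcnd2. Its probe set 1379863_at read 10.22, 10.18 and 10.28 in SHR against 10.30, 10.37 and 10.30 in WKY, a difference of -0.10 ± 0.08 (adjusted p = 0.761, limma), and the strains did not overlap by a narrow margin. The second probe set, 1387476_at, gave 0.02 ± 0.11 with overlapping strains.

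Kv3 channels repolarise fast-firing neurons so that spikes stay short. Kcnc2, encoding Kv3.2, had 6 probe sets, 4 of them kept. The probe set 1370559_at (chr7:54999432-55175449) read 7.52, 8.01 and 7.85 in SHR, against 8.38, 8.30 and 8.31 in WKY. All 3 SHR animals lay below all 3 WKY animals. The mean ± SD was 7.79 ± 0.25 in SHR and 8.33 ± 0.04 in WKY, and the difference was -0.54 ± 0.16 (95% interval -0.89 to -0.18), a 1.45-fold higher signal in WKY, with an adjusted p of 0.229 by limma. The gene name of this probe set rests on overlap with the genome annotation. The other 3 kept Kcnc2 probe sets lay nearer to 0: 1370439_a_at at -0.08 ± 0.09, 1370557_a_at at 0.07 ± 0.17 and 1370558_a_at at -0.26 ± 0.25, with adjusted p-values of 0.836, 0.940 and 0.816 and overlapping strains in each. Kcnc1, encoding Kv3.1 of the same family, read 11.74, 12.10 and 11.92 in SHR against 11.98, 11.97 and 11.87 in WKY, a difference of -0.02 ± 0.09 (interval -0.21 to 0.17).

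The Kv1 subunits sit largely on axons and terminals and open near rest. Kcna1 (Kv1.1; chr4:226188447-226190596, minus strand) read 12.31, 12.31 and 12.06 in SHR, against 12.09, 12.05 and 11.95 in WKY. The lowest SHR value fell just under the highest WKY value, so the strains overlapped by a small margin. The difference was 0.20 ± 0.08 with an adjusted p of 0.429 by limma. Kcna5 (Kv1.5) leaned the other way, with 6.43, 6.71 and 6.76 in SHR and 7.08, 6.73 and 7.30 in WKY (difference -0.40 ± 0.23, adjusted p = 0.654). Kcna4 (Kv1.4, an inactivating A-type subunit) differed by -0.05 ± 0.14 and Kcna6 (Kv1.6) by -0.07 ± 0.11, both with overlapping strains.

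Kv beta subunits attach to Kv1 channels and can speed their inactivation. Kcnab1 probe set 1378738_at (chr2:175397804-175398299) read 12.51, 12.18 and 12.27 in SHR, against 12.07, 12.00 and 12.17 in WKY. The strains did not overlap, though the lowest SHR and the highest WKY value nearly touched. The difference was 0.24 ± 0.09 (adjusted p = 0.365, limma), and 0.14 without the first SHR animal. Its second probe set, 1369847_at, 962 bases away, pointed the other way at 9.04, 9.36 and 9.20 in SHR and 9.18, 9.55 and 9.35 in WKY (-0.16 ± 0.13, adjusted p = 0.759).

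The silent Kv subunits, which form no channel alone but modify Kv2 channels, gave no called difference. Kcns3 was 9.87, 10.40 and 10.34 in SHR against 10.40, 10.42 and 10.54 in WKY (-0.25 ± 0.13, adjusted p = 0.610), the first SHR animal standing below the rest, and the difference was -0.081 without it. Kcns1 was 5.25, 6.83 and 6.61 in SHR against 6.11, 6.19 and 6.67 in WKY (-0.10 ± 0.41), and was Present on only 1 SHR and 2 WKY arrays. In the ether-a-go-go family, Kcnh1 (EAG) read 7.47, 7.67 and 7.33 in SHR against 7.21, 7.44 and 7.17 in WKY (0.22 ± 0.18, adjusted p = 0.772). Kcnh2, the ERG channel of cardiac and neuronal repolarisation, read 9.42, 9.13 and 9.39 in SHR against 9.57, 9.13 and 9.36 in WKY (-0.04 ± 0.13, adjusted p = 0.956). In both, the strains overlap.

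Over all Kv genes, 6 of 19 kept probe sets had a higher and 13 a lower mean in SHR (background 50.3% higher; median difference -0.07), and 4 (21.1%, background 9.52%) had an unadjusted p under 0.05, 3 upward (Kcnd3, Kcnab1, Kcna1) and 1 downward (Kcnc2). Without the first SHR animal the split turned round, with 11 higher and 8 lower.

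**Figure D4:**
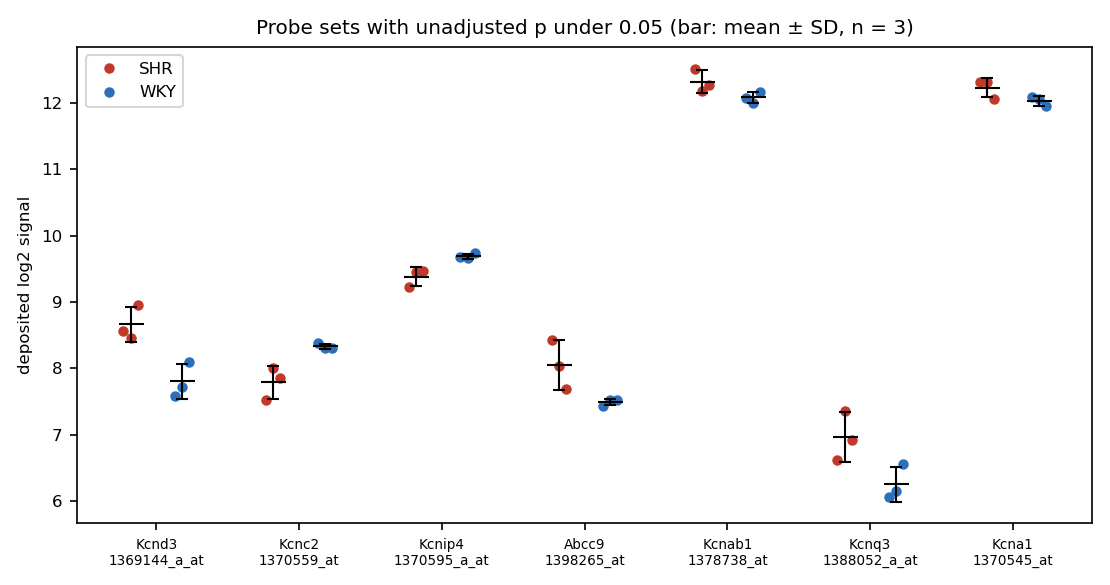
Log2 signal of each animal for the 7 probe sets with an unadjusted p under 0.05, with the 3 SHR animals left of the 3 WKY animals for each gene and bars for the mean ± SD. For Kcnd3, Abcc9, Kcnab1 and Kcnq3 all SHR points lie above all WKY points, for Kcnc2 and Kcnip4 below, and for Kcna1 they overlap.

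KChIPs bind Kv4 channels and alter their surface expression and gating. Kcnip4 (probe set 1370595_a_at, chr14:65635532-66779327) read 9.22, 9.45 and 9.47 in SHR, against 9.68, 9.66 and 9.73 in WKY. Every SHR animal was below every WKY animal, with means ± SD of 9.38 ± 0.14 in SHR and 9.69 ± 0.04 in WKY. The difference was -0.31 ± 0.10 (adjusted p = 0.288, limma). Kcnip1 had 2 kept probe sets, both with higher means in SHR: 1370781_a_at read 7.78, 8.01 and 8.28 in SHR against 7.64, 7.74 and 7.84 in WKY (0.28 ± 0.17, adjusted p = 0.661), and 1394097_at gave 0.11 ± 0.11. Their strains overlap.

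In the Kir and KATP family, 11 of 13 kept probe sets had a higher mean in SHR and 2 a lower one (background 50.3% higher, median difference 0.12). With 1 probe set a gene, 7 of 9 genes were higher. Without the third WKY animal the split of the probe sets was 8 against 5. Under median centring of the arrays the split was 9 against 4, and with no detection filter, which adds probe sets that are mostly Absent, it was 12 against 12. KATP channels pair a Kir6 pore with a sulfonylurea receptor. Abcc9, the receptor SUR2, had the smallest p of this family: probe set 1398265_at (chr4:241020018-241139051) read 8.43, 8.03 and 7.69 in SHR, against 7.44, 7.52 and 7.53 in WKY. All SHR animals lay above all WKY animals, the first SHR animal farthest. The means ± SD were 8.05 ± 0.37 in SHR and 7.49 ± 0.05 in WKY, and the difference was 0.55 ± 0.20, a 1.47-fold higher signal (adjusted p = 0.361, limma). Leaving out single animals moved it between 0.36 and 0.73. The Abcc9 probe set 1374171_at, 277 bases away, read 9.36, 9.12 and 8.99 in SHR and 8.99, 9.07 and 9.05 in WKY, with a difference of 0.11 ± 0.12 (adjusted p = 0.832) and overlapping strains. Its usual pore partner in vessels, Kcnj8 (Kir6.1), lies 16.2 kb away on chromosome 4 and differed by 0.19 ± 0.23, with 7.06, 7.08 and 7.32 in SHR against 6.57, 7.07 and 7.25 in WKY. Abcc9 and Kcnj8 are also pericyte genes, and the 10 mural markers overlapped between strains, with a summed signal of 2735 to 4449 in SHR and 3541 to 4076 in WKY. Of these 10 markers, 3 had a higher mean in SHR. Among the 3 was Rgs5, with a linear signal of 1289, 1058 and 872 in SHR against 875, 887 and 873 in WKY. The Rgs5 difference was 0.27 ± 0.13 (adjusted p = 0.545, limma). Pdgfrb, Acta2, Tagln, Myh11, Des, Cspg4 and Vtn had lower means in SHR, from -0.79 ± 0.45 for Des to -0.14 ± 0.14 for Vtn. The median difference over the 10 markers was -0.18. The part of mural cell content in the Abcc9 and Kcnj8 values was not tested.

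The neuronal KATP pair lies 4.6 kb apart on chromosome 1. The pore gene Kcnj11 (Kir6.2) had 3 kept probe sets, with differences of 0.26 ± 0.15, 0.16 ± 0.18 and 0.02 ± 0.29. The first, 1391007_s_at, was 8.81, 8.95 and 9.12 in SHR and 8.64, 8.50 and 8.96 in WKY. Its receptor Abcc8 (SUR1) differed by 0.05 ± 0.15. Neither gene was called.

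G protein-gated Kir channels (GIRK) are opened by inhibitory transmitters. Kcnj6 (GIRK2) had 2 kept probe sets. 1369034_at read 5.50, 5.79 and 6.03 in SHR against 5.22, 5.50 and 4.90 in WKY (0.57 ± 0.36, adjusted p = 0.687). The lowest SHR and the highest WKY value met without overlapping, and the probe set was Present on 1 SHR and 3 WKY arrays. 1369035_a_at read 9.29, 9.29 and 9.37 in SHR against 9.28, 9.19 and 9.45 in WKY, a difference of 0.01 ± 0.10. Kcnj3 (GIRK1) differed by -0.05 ± 0.21 and Kcnj5 (GIRK4) by -0.21 ± 0.22. The pH-sensitive glial pair Kcnj10 (Kir4.1) and Kcnj16 (Kir5.1) differed by 0.58 ± 0.62 and by 0.12 ± 0.12. For Kcnj10, 1 WKY animal at 3.78, an Absent call, stood far below the other values of 5.72 to 6.51. Kcnj10 was Present on only 2 SHR arrays and 1 WKY array.

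All 5 kept K2P probe sets, from 4 genes, had higher means in SHR (background 50.3% higher; median difference 0.23), none with an unadjusted p under 0.05. The split was 4 against 1 without the third SHR animal, without the first WKY animal and without the third WKY animal. With a pseudocount of 64 the median was 0.13. Kcnk2 (TREK-1, opened by stretch and lipids) read 8.08, 8.27 and 8.53 in SHR against 8.02, 8.18 and 7.998 in WKY (0.22 ± 0.15, adjusted p = 0.721). Kcnk3 (TASK-1, closed by acid) read 7.77, 7.69 and 7.90 in SHR against 7.07, 7.61 and 7.83 in WKY (0.28 ± 0.21, adjusted p = 0.745), with 1 low WKY animal, without which the difference was 0.065. Kcnk10 (TREK-2) differed by 0.23 ± 0.32 and 0.35 ± 0.42 in its probe sets, and Kcnk1 (TWIK-1) by 0.03 ± 0.13. All these strains overlap.

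Calcium- and sodium-activated channels gave 4 higher and 2 lower probe sets (background 50.3% higher, median difference 0.14) with no unadjusted p under 0.05. Without the second SHR animal the split was 3 against 3 and the median -0.013, and with no detection filter the median was 0.41. Kcnmb4, the brain beta subunit of the BK channel, read 9.66, 8.38 and 9.27 in SHR and 8.72, 8.45 and 8.90 in WKY (0.41 ± 0.27, adjusted p = 0.701). The spread between the SHR animals was wide, and the difference ran from 0.13 to 0.77 when 1 animal at a time was left out. The second SHR animal, lowest of the SHR animals in Kcnmb4, was also the lowest of them in all 6 cholinergic and motor neuron markers. That animal was likewise the lowest of them in all 7 detected endothelial markers. The same held for the astrocyte marker Gfap, at 2449 against 6416 and 5813, and for the other detected astrocyte markers except Aldoc and S100b. Among the neuron markers it held for Stmn2, Nefl, Nefh and Tubb3, but not for Rbfox3, Snap25, Syt1, Nefm and Map2. The part of these markers in the Kcnmb4 value was not tested. The BK pore gene Kcnma1 gave 0.14 ± 0.14 and -0.31 ± 0.28. Kcnt1 is the sodium-activated channel Slack. Its probe set 1379147_at read 7.31, 7.01 and 7.37 in SHR against 6.71, 5.98 and 7.50 in WKY (0.50 ± 0.34, adjusted p = 0.716), the highest value of all 6 being a WKY animal. Without the low second WKY animal the difference was 0.12, and without the high WKY animal 0.89. Its other probe sets gave 0.15 ± 0.20 and -0.07 ± 0.13.

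KCNQ channels carry the M-current. Kcnq3 (Kv7.3; probe set 1388052_a_at, chr7:106665198-106956186) read 6.62, 7.36 and 6.92 in SHR, against 6.06, 6.15 and 6.55 in WKY. No WKY value reached the lowest SHR value, though the gap between the strains was narrow. The means ± SD were 6.97 ± 0.38 in SHR and 6.26 ± 0.26 in WKY, and the difference was 0.71 ± 0.27, a 1.64-fold higher signal (adjusted p = 0.412, limma). It was Present on 3 SHR and 2 WKY arrays. Kcnq5 read 9.21, 8.92 and 8.78 in SHR against 9.46, 8.95 and 8.68 in WKY (-0.06 ± 0.19).

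In 11 genes 2 or more probe sets were kept, giving 20 pairs, and the disagreements seen for Kcnd3, Kcnc2 and Abcc9 were tested directly as a strain difference in the per-array difference of 2 probe sets of a gene. None of the 20 was called after adjustment over 4362 such pairs on the array (background 0.0229%). At an unadjusted p under 0.05 there were 3 (background 7.36%). For Kcnd3, 1369144_a_at minus 1378111_at was -1.22, -1.54 and -1.35 in SHR against -2.21, -2.19 and -2.49 in WKY, a difference of 0.92 ± 0.16 (adjusted p = 0.215, limma). For Kcnc2, 1370557_a_at minus 1370559_at was -0.26, -0.67 and -0.47 in SHR against -1.04, -1.13 and -1.05 in WKY (0.61 ± 0.15, adjusted p = 0.353). For Abcc9, 1374171_at minus 1398265_at was 0.93, 1.09 and 1.30 in SHR against 1.55, 1.55 and 1.53 in WKY (-0.44 ± 0.15, adjusted p = 0.604). In all 3 genes the SHR and WKY values of the difference did not overlap, but these pairs were picked for the smallest p of the 20. Nothing more is read from that separation. The estimates had opposite sign in 9 of the 20 pairs, from 6 genes. The share over all pairs was not counted and some pairs share a probe set, so nothing is read from that count.

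**Figure D5:**
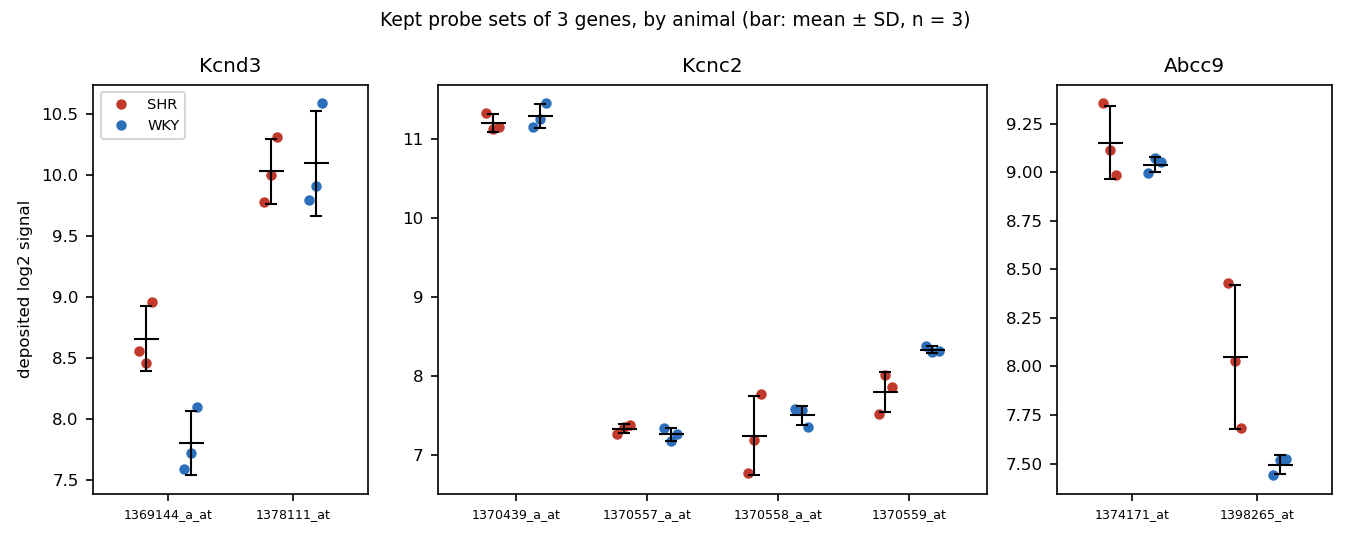
Log2 signal of each animal for the kept probe sets of Kcnd3, Kcnc2 and Abcc9, with the 3 SHR animals left of the 3 WKY animals for each probe set and bars for the mean ± SD. The strains separate in 1 probe set of each gene (1369144_a_at, 1370559_at and 1398265_at) and overlap in the others.

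Genes outside the list that encode potassium channel subunits, or accessory and associated proteins, were looked at with the same filter. Of 48 such genes, 34 had a probe set and 20 were detected, with 22 kept probe sets. None was called by limma (background 0.924%) and 1 of the 22 had an unadjusted p under 0.05 (background 9.52%). In this second list 16 probe sets were higher and 6 lower in SHR, where 50.3% of all were higher (median difference 0.18).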

How the data were processed

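RNA of the RVLM of 3 SHR and 3 WKY rats was amplified, biotin-labelled and read on Affymetrix Rat 230 2.0 arrays, per the labels' protocols. The deposited intensity values were made with MAS5, per the submitters' processing notes, and scaled to a trimmed mean near 500.14 on each array. The deposited log2 values equal log2 of those intensities floored at 1, to within 8.2e-06, and were used throughout. The deposited detection calls gave the filter (Present on at least 3 of 6 arrays).

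limma 3.58.1 (R 4.3.3) was fitted with strain as the only factor and a variance trend, 2-sided, with Benjamini-Hochberg adjustment over 20790 probe sets, after 57 array controls were left out. Pair differences were fitted likewise over 4362 pairs. The script was tested on simulated data. All 85 member probe sets carry a gene ID with the same symbol in the RefSeq table used here. Per-animal values are given, by rule, for the 2 probe sets of smallest p in each subfamily and the 3 pairs of smallest p. Other per-animal values were chosen after they were seen. Alternatives were quantile normalisation, median centring, pseudocounts of 16 and 64, other detection filters, no variance trend, a replicate block, the mean of all kept probe sets for the gene counts, and leaving out each animal. Same-numbered animals deviated together with correlations of -0.01 to 0.08, against -0.12 to 0.07 for differently numbered ones. No pairing by replicate number was seen, though 3 animals a strain are too few to exclude one. The members and lists were chosen with earlier results of these data known. With 1 array per animal, p-values measure the spread between animals, and the 3 animals a strain limit the precision. Probe sequences were not used here. Some genes are not reported here.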

Additional observations from a re-analysis of the deposited data

How the results depend on the processing

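No potassium channel probe set was called under 13 of 14 alternatives. The exception was the fit with the replicate number as a block, which called 1 (Kcnd3 1369144_a_at, difference 0.86, adjusted p = 0.0272). No pairing of these animals by replicate number was seen. Leaving out 1 animal at a time called 0 in all 6 cases, as did genes (0), pairs of probe sets (0) and the other potassium channel and accessory genes (0). Members with an unadjusted p under 0.05 numbered 5 to 9. Of 346 values for 25 results, 339 kept their direction and side of the threshold, and 6 turned sign, all on leaving out an animal: Kcnh2 to 0.05 and 0.067 (without SHR replicate 2 and without WKY replicate 1), Kcnq5 to 0.04 and 0.15 (without SHR replicate 3 and without WKY replicate 1), and Kcns1 to 0.39 and 0.08 (without SHR replicate 1 and without WKY replicate 3). Over all single animals left out, Kcnh2 ran from -0.15 to 0.067, Kcnq5 from -0.23 to 0.15 and Kcns1 from -0.39 to 0.39. The cause was not tested. Among the limits are 3 animals a strain and, for 9 of the 48 probe sets, calls other than Present on some arrays.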

Other observations

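Probe sets that carry a member's symbol together with a second one were not members. There are 2 that are annotated Kcnip2///LOC100911951, Kcnip2 being the KChIP gene whose own probe set was Absent on all 6 arrays. Probe set 1373987_at read 8.66, 8.40 and 8.48 in SHR, against 7.82, 7.60 and 7.94 in WKY, with no overlap (0.73 ± 0.15, 1.66-fold, adjusted p = 0.0604, limma, 0.0576 to 0.246 over the alternatives). The design description of that probe set names Sv2b, so its gene is uncertain. The other, 1370773_a_at, read 6.36, 6.74 and 6.40 in SHR against 5.69, 5.63 and 6.13 in WKY (0.68 ± 0.28, adjusted p = 0.466) and was Present on 3 SHR arrays and 1 WKY array. Both align at 2 places on chromosome 1, and the gene ID of the second symbol was not found in the RefSeq table used here. The probe set annotated Kcnn2///LOC100910229, with Kcnn2 encoding a small-conductance calcium-activated channel, read 9.31, 9.66 and 9.48 in SHR against 9.54, 9.35 and 9.76 in WKY (-0.07 ± 0.13, adjusted p = 0.918).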
